A study of Mus musculus with 9 samples.

Results

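The extracellular matrix genes followed here are 52 genes listed by symbol, namely collagens, laminins, other basement membrane genes, matricellular and elastic fibre genes, proteoglycans, collagen-modifying enzymes, and matrix proteases with their inhibitors. Of these, 48 had a probe set annotated to that gene symbol alone, out of 18193 genes on the array, and the brightest such probe set, by its average across the 9 arrays, stood for the gene. Spp1, Fbn1, Loxl2 and Mmp15 had no such probe set and were not analysed here. The arrays measured total RNA of Neuro2a cells, a mouse neuroblastoma line, 48 h after treatment with siMyT1 (siRNA against Myt1), siLSD1 (siRNA against Kdm1a, which encodes the histone demethylase LSD1) or the control siRNA, siControl, with 3 arrays in each group. Myt1 encodes a neural zinc finger transcription factor, and the series concerns it as a subunit of an LSD1 complex. All 3 groups are the same cell line with transient siRNA treatment. The labels give neither the siRNA sequences nor whether the replicates were separate cultures, and p-values therefore reflect how far these arrays differ, which can be technical variation alone.

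The matrix is built from 2 kinds of assembly that cells secrete. Basement membranes are sheets of laminin and collagen IV networks joined by nidogens and the heparan sulfate proteoglycans perlecan and agrin. Interstitial matrix consists of fibrils of other collagens with fibronectin, elastic fibres and small proteoglycans. Matricellular proteins such as SPARC bind this scaffold and change how cells attach to it, lysyl oxidases and lysyl hydroxylases modify and cross-link collagen, and metalloproteases cut the matrix under the control of TIMP inhibitors. In the nervous system, laminins, agrin and fibronectin are known as substrates for axon growth and synapse formation.

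Each siRNA lowered its own target. Myt1 measured 0.625, 0.882 and 0.474 units in siMyT1 and 7.09, 7.59 and 6.16 units in siLSD1, against 4.6, 5.27 and 4.82 units in siControl, and Kdm1a averaged 30.9 ± 1.6 units in siMyT1 and 4.49 ± 0.40 units in siLSD1, against 29.0 ± 1.0 units in siControl (SD, n = 3 each). Units here are the deposited linear intensities, whose scaling the labels do not give. Array medians lay between 0.302 and 0.424 units, summed intensities between 196271 and 219953 units, and the number of arrays limits the precision. Log2 fold changes are differences of log2(intensity + 0.196), with positive values for higher intensity in the group named first, and they understate the change of dim genes. A gene is said to have risen or fallen, or to be called, where limma's adjusted p over all 18193 genes was below 0.05.

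Measured members differed widely in brightness, and probe sets differ in how strongly they respond, so intensities are compared between groups and not between genes. As a guide to what little or no transcript gives, 26 measured genes restricted to other organs had a median of 0.126 units and a 90th percentile of 0.633 units, although Cela1 among them reached 20.8 units. Of the 48 matrix genes, 18 averaged more than 0.633 units over all arrays and 30 did not. The 18 were Fbln1, Fn1, Lama4, Fbln2, Sparc, Col4a2, Plod2, Col4a1, Timp2, Lamc1, Agrn, Lama5, Hspg2, Lamb2, Eln, Vcan, Dcn and Serpinh1. The genes above the guide therefore included some collagen IV and laminin chains, perlecan and agrin, which form basement membranes, together with fibulins, fibronectin and SPARC. Other basement membrane genes, namely Col4a5, Col18a1, Lama1, Lama2, Lamb1, Nid1 and Nid2, did not exceed it. The fibrillar collagens Col1a1, Col1a2, Col3a1, Col5a1, Col5a2 and Col11a1 and the fibril-associated Col12a1 all lay in the dim part, with a median of 0.167 units.

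After siMyT1, fibronectin, SPARC, 2 laminin chains, 3 of 4 interstitial proteoglycans and Timp2 rose, and agrin and elastin fell. In all, 8 of 48 matrix genes (16.7%) were higher than in siControl, where 5.12% of all genes were, and 2 (4.17%) were lower, where 2.29% of all genes were (10 members, or 20.8%, in either direction, and 7.41% of all genes). After siLSD1, 5 members (10.4%) were higher than in siControl and 1 (2.08%) was lower, where 3.97% and 4.93% of all genes were (6 members, or 12.5%, in either direction, and 8.90% of all genes). The genes that rose there were Sparc, Lama4, Fbln1, Agrn and Timp2, and Eln fell. The median log2 fold change of the members was 0.12 in siMyT1, against 0.05 over all genes, and 0.03 in siLSD1, against -0.03 over all genes. Both comparisons use the same siControl arrays. Arrays of siMyT1 lay wholly above those of siControl for 16 members (33.3%, and 16.5% of all genes) and wholly below for 2 (4.17%, and 7.55% of all genes), 18 in all (37.5%, and 24.0% of all genes). Arrays of siLSD1 lay wholly above for 8 members (16.7%, and 10.7% of all genes) and wholly below for 5 (10.4%, and 16.1% of all genes), 13 in all (27.1%, and 26.8% of all genes). The 8 higher members in siMyT1 became 5 without siControl replicate 1 or siMyT1 replicate 2 or 3, and the 2 lower became 0 or 1 without any siControl or siMyT1 replicate or siLSD1 replicate 3. Over all genes, the same fits took higher calls in siMyT1 from 931 to 436, 423 and 441, and lower calls from 417 to between 214 and 313. The 5 higher members in siLSD1 became 3 without siControl replicate 1 or siLSD1 replicate 1 or 3, and the 1 lower became 0 without siControl replicate 1 or 2 or siLSD1 replicate 3. Those fits took higher calls over all genes in siLSD1 from 722 to 432, 450 and 442, and lower calls from 897 to 538, 532 and 523.

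**Figure D1:**
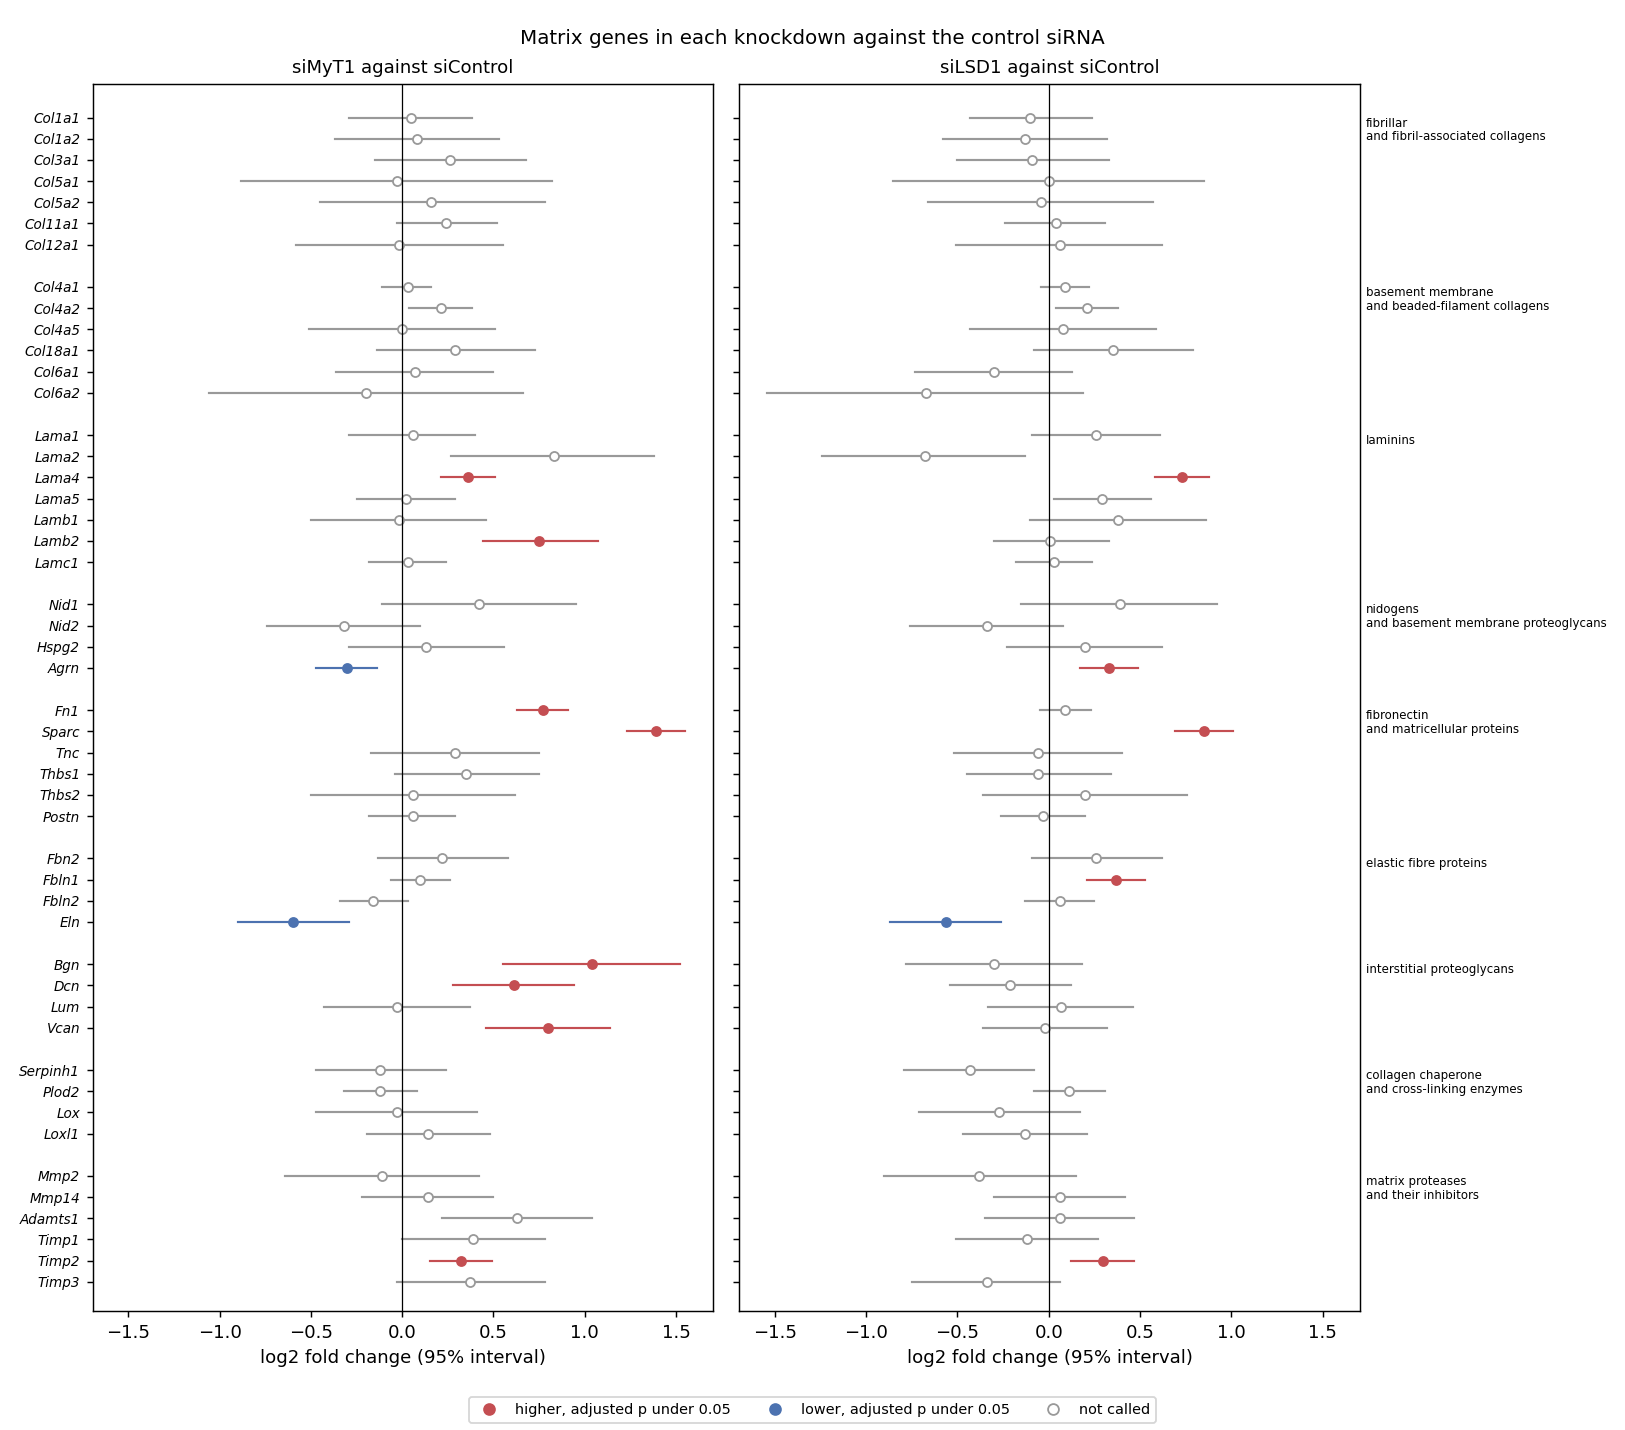
Log2 fold change of each of the 48 measured matrix genes, in siMyT1 against siControl (left panel) and siLSD1 against siControl (right panel), with bars for the 95% interval of limma and genes grouped by role down the page. Filled points mark calls: 8 higher and 2 lower in siMyT1, and 5 higher and 1 lower in siLSD1.

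Sparc, whose protein binds collagen and loosens cell attachment, changed most of the called matrix genes in both knockdowns. It measured 31.6, 32.3 and 34.6 units in siMyT1 and 25.0, 20.5 and 22.5 units in siLSD1, against 12.6, 11.8 and 12.9 units in siControl. No array of 1 group overlapped with another group, and the order was siMyT1, then siLSD1, then siControl. The log2 fold change was 1.39 in siMyT1 (SE 0.07, adjusted p = 6.37e-07) and 0.85 in siLSD1 (SE 0.07, adjusted p = 1.27e-05), or 2.64 and 1.82 times the mean intensity of siControl. A second bright probe set of Sparc rose as well, by 1.07 in siMyT1 (adjusted p = 6.03e-05 over all probe sets) and 0.82 in siLSD1 (adjusted p = 0.000121). Directly compared, siMyT1 exceeded siLSD1 by 0.53 (adjusted p = 0.000281), but by 0.25 on the second probe set, which did not pass the test (adjusted p = 0.0746).

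Fn1 encodes fibronectin, the adhesive glycoprotein that integrins assemble into fibrils. Its intensities were 48.1, 51.5 and 48.3 units in siMyT1 and 32.5, 29.7 and 30.2 units in siLSD1, against 29.7, 30.2 and 26.8 units in siControl. The siMyT1 arrays lay above all the others, while siLSD1 and siControl overlapped. Fn1 rose by 0.77 in siMyT1 (SE 0.07, adjusted p = 2.76e-05) and differed by 0.09 in siLSD1 (95% interval -0.05 to 0.23, adjusted p = 0.492). The direct difference between the knockdowns was 0.68 (adjusted p = 1.68e-05). The other matricellular members, Tnc, Thbs1, Thbs2 and Postn, averaged at most 0.337 units in any group and none was called. Among these, Thbs1, which encodes an anti-angiogenic matricellular protein, averaged 0.337 ± 0.089 units in siMyT1 and 0.202 ± 0.041 units in siLSD1, against 0.217 ± 0.028 units in siControl, and was called between the knockdowns without siMyT1 replicate 1.

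Among 7 laminin chains, which join as trimers of alpha, beta and gamma chains, Lama4 and Lamb2 rose in siMyT1 and Lama4 rose in siLSD1. These are 28.6% higher in siMyT1 and 14.3% higher in siLSD1, where 5.12% and 3.97% of all genes were. Lama4, the alpha-4 chain, measured 25.1, 24.7 and 27.6 units in siMyT1 and 35.3, 30.4 and 34.7 units in siLSD1, against 19.5, 19.9 and 20.6 units in siControl. Its groups did not overlap, and siLSD1 was the highest. Lama4 rose by 0.73 in siLSD1 (SE 0.07, adjusted p = 2.43e-05) and by 0.36 in siMyT1 (adjusted p = 0.00756), and was lower in siMyT1 than in siLSD1 by -0.37 (adjusted p = 0.00224). A second Lama4 probe set rose by 0.65 in siLSD1 (adjusted p = 0.0212) and differed by 0.32 in siMyT1 (adjusted p = 0.308). Between siMyT1 and siLSD1 that probe set differed by -0.34, which did not pass the test (adjusted p = 0.169).

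Lamb2, the beta-2 chain of synaptic and renal basement membranes, showed another pattern. It measured 2.07, 2.18 and 2.0 units in siMyT1 and 1.05, 1.40 and 1.08 units in siLSD1, against 1.1, 1.34 and 1.05 units in siControl. Only the siMyT1 arrays stood apart. The rise in siMyT1 was 0.75 (SE 0.14, adjusted p = 0.00769), the difference in siLSD1 was 0.01 (95% interval -0.30 to 0.33), and siMyT1 exceeded siLSD1 by 0.74 (adjusted p = 0.00299).

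Lama2, the alpha-2 chain of muscle and Schwann cell basement membranes, was dim but differed between the knockdowns. It measured 1.06, 0.870 and 0.862 units in siMyT1 and 0.223, 0.359 and 0.0666 units in siLSD1, against 0.520, 0.503 and 0.309 units in siControl. Every siMyT1 array lay above every siControl array, and siLSD1 arrays overlapped with siControl. The direct log2 difference was 1.51 (SE 0.26, adjusted p = 0.00117), but ran from 0.91 to 2.35 across settings. In siLSD1 and in siControl, Lama2 averaged below the background guide of 0.633 units. Neither difference from siControl was called (0.83 with adjusted p = 0.0728 in siMyT1, and -0.68 with adjusted p = 0.132 in siLSD1). Both turned into calls in some alternatives, among them in siMyT1 without siLSD1 replicate 2 or 3 (adjusted p = 0.0477 and 0.0394), and in siLSD1 without siLSD1 replicate 2 (adjusted p = 0.0485). The remaining chains Lama1, Lama5, Lamb1 and Lamc1 were not called in any comparison, although Lama5 was called with quantile normalization or array weights in siLSD1 and with quantile normalization or median centring between the knockdowns, and Lamb1 between the knockdowns without siMyT1 replicate 3. Lamc1, the gamma-1 chain found in most laminins, averaged 9.42 ± 1.3 units in siMyT1 and 9.38 ± 0.59 units in siLSD1, against 9.21 ± 0.97 units in siControl, with 95% intervals of the difference from siControl of -0.18 to 0.24 in both. A dimmer Lamc1 probe set was higher in siMyT1 than in siLSD1 by 0.52 (adjusted p = 0.0166), a difference that the brighter probe set did not show.

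Promoter windows from RefSeq (build GRCm38.p6, 250 bases before to 50 after the annotated start) are shown for Sparc, called in both knockdowns, and Lamb2, called in siMyT1 but not in siLSD1. Capitals mark AAGTT, the core motif that Myt1 family zinc fingers are known to bind, searched on both strands, so that AACTT is the same motif on the other strand. The Sparc window is chr11:55420031-55420330 on the minus strand, with 1 match, and the Lamb2 window is chr9:108479612-108479911 on the plus strand, with 2 matches.
Sparc: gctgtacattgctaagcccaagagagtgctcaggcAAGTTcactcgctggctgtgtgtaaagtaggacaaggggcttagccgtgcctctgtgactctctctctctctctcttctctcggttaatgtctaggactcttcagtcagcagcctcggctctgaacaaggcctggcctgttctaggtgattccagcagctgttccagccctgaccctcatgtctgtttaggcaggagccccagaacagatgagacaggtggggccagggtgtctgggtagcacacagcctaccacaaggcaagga
Lamb2: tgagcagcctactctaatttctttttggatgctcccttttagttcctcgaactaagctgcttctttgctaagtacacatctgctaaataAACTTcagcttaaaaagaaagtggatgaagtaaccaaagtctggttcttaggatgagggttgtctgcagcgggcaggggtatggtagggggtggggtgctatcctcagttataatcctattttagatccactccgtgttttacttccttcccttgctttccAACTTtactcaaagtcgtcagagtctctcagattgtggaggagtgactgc
Of 31 matrix genes with a window, 14 (45.2%) held the motif, as did 42.8% of all 27025 genes with a window and 39.3% of all 32851 windows. Among the 9 called matrix genes with a window, 3 held it, Sparc and Lamb2 among them, and among the 22 others 11 did. The windows shown are therefore not typical of the called genes. A match describes the letters in this window and not a bound site.

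Agrn, which encodes agrin, the proteoglycan that clusters acetylcholine receptors at synapses, differed from siControl in opposite directions. It measured 3.75, 3.78 and 3.98 units in siMyT1 and 6.12, 5.92 and 6.13 units in siLSD1, against 4.54, 4.65 and 5.18 units in siControl. The 3 groups did not overlap, with siControl in the middle. Agrn fell by 0.30 in siMyT1 (SE 0.08, adjusted p = 0.0271) and rose by 0.33 in siLSD1 (SE 0.08, adjusted p = 0.0147), and siMyT1 was below siLSD1 by -0.63 (adjusted p = 8.84e-05). The difference between the knockdowns held without any single array. Agrn no longer passed in siMyT1 without siControl replicate 1 or 3, siLSD1 replicate 3 or any siMyT1 replicate (adjusted p from 0.0515 to 0.114), nor in siLSD1 without siControl replicate 1 or siLSD1 replicate 1 or 3 (adjusted p from 0.0542 to 0.0831). Nid1, Nid2 and Hspg2, which encode the nidogens and perlecan, were not called. Perlecan's Hspg2 averaged 2.39 ± 0.54 units in siMyT1 and 2.47 ± 0.18 units in siLSD1, against 2.20 ± 0.78 units in siControl.

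None of the 13 collagen chains was called by limma in any of the 3 comparisons, and 1 of them, Col4a2, had an unadjusted p under 0.05 against siControl, in both knockdowns. Col4a2 was called higher in siMyT1 with quantile normalization, and in siLSD1 with quantile normalization, the filter on dim genes and array weights. Their differences ran from -0.20 to 0.29 in siMyT1 and from -0.67 to 0.35 in siLSD1, relative to siControl. Col4a1 and Col4a2, whose chains form the main collagen IV network, are described on each array because their genes share a promoter region. Col4a1 measured 13.7, 15.3 and 14.7 units in siMyT1 and 15.4, 14.5 and 15.7 units in siLSD1, against 14.5, 14.2 and 14.1 units in siControl. Its 95% intervals were -0.11 to 0.16 in siMyT1 and -0.04 to 0.22 in siLSD1. Col4a2 measured 19.0, 19.5 and 22.3 units in siMyT1 and 21.8, 18.4 and 20.6 units in siLSD1, against 17.9, 18.2 and 16.3 units in siControl. Its arrays lay above those of siControl in both knockdowns, by 0.21 in each (adjusted p = 0.142 in siMyT1 and 0.138 in siLSD1).

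Col4a1 and Col4a2 lie head to head, and their windows are shown because they share 78 bases, chr8:11312777-11312854, in capitals. The Col4a1 window is chr8:11312777-11313076 on the minus strand and the Col4a2 window is chr8:11312555-11312854 on the plus strand, both from RefSeq, build GRCm38.p6. Neither holds AAGTT.
Col4a1: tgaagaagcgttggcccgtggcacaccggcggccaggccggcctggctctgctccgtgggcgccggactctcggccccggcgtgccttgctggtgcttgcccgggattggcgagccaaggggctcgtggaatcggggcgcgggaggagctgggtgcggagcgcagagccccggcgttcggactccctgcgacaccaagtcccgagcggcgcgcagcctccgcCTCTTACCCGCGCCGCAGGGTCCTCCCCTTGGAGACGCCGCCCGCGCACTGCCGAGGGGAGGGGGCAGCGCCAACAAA
Col4a2: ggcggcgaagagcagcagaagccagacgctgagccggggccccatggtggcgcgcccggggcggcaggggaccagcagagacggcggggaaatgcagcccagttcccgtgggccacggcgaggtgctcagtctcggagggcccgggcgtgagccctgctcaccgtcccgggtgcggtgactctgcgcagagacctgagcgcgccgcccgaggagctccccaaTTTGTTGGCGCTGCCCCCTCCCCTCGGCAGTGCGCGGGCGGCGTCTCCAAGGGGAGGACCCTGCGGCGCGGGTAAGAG

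**Figure D2:**
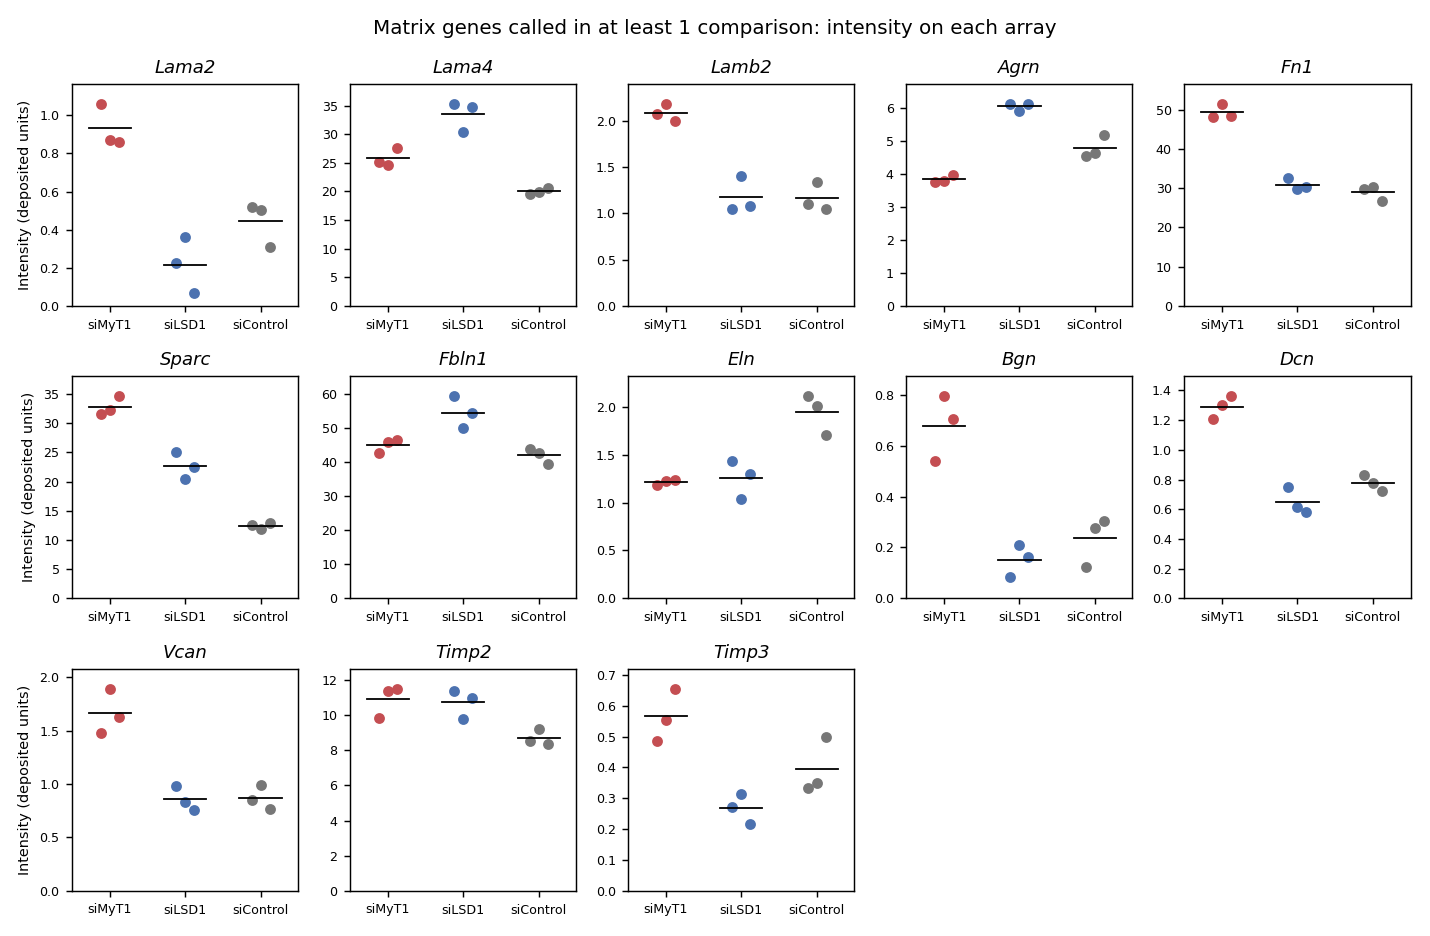
Deposited intensity on each array for the 13 matrix genes called in at least 1 comparison, in 1 panel per gene with its own vertical axis from 0. Points are arrays and lines are means of 3 arrays. Sparc stands at 31.6 to 34.6 units in siMyT1 and 20.5 to 25.0 units in siLSD1, above 11.8 to 12.9 units in siControl, while Agrn in siControl lies between the knockdowns.

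Of 4 interstitial proteoglycan genes, 3 (75.0%) rose in siMyT1, where 5.12% of all genes did. In siLSD1, 0 were called by limma and 0 had an unadjusted p under 0.05, where 3.97% of all genes rose and 4.93% fell. The same 3 (75.0%) were higher in siMyT1 than in siLSD1, where 13.2% of all genes were. Vcan, which encodes versican, a large hyaluronan-binding proteoglycan, measured 1.48, 1.89 and 1.63 units in siMyT1 and 0.978, 0.835 and 0.761 units in siLSD1, against 0.847, 0.992 and 0.769 units in siControl. The siMyT1 arrays lay above all the others. Vcan rose by 0.80 in siMyT1 (SE 0.16, adjusted p = 0.00844), differed by -0.02 in siLSD1 (95% interval -0.36 to 0.32), and was higher in siMyT1 than in siLSD1 by 0.82 (adjusted p = 0.00267). A second of its 8 probe sets rose in siMyT1 too (0.60, adjusted p = 0.0404 over all probe sets).

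Dcn encodes decorin, a small proteoglycan that binds collagen fibrils. It measured 1.21, 1.30 and 1.36 units in siMyT1 and 0.747, 0.614 and 0.583 units in siLSD1, against 0.831, 0.778 and 0.724 units in siControl, and only siMyT1 stood clear of the other groups. The rise in siMyT1 was 0.61 (SE 0.15, adjusted p = 0.0292). Leaving out any siControl replicate or siMyT1 replicate 2 or 3 ended this call (adjusted p from 0.0684 to 0.108), whereas the excess over siLSD1 (0.82, adjusted p = 0.00221) held without any single array.

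Bgn, which encodes the related biglycan, averaged below the background guide of 0.633 units in siLSD1 and siControl. Its intensities were 0.539, 0.794 and 0.704 units in siMyT1 and 0.0845, 0.209 and 0.161 units in siLSD1, against 0.124, 0.277 and 0.306 units in siControl. Again siMyT1 was the group that stood apart. The rise was 1.04 (SE 0.22, adjusted p = 0.0142), and the excess over siLSD1 was 1.34 (adjusted p = 0.00103). With siLSD1 and siControl below the guide, the sizes depend on the settings, from 0.45 to 1.59 against siControl and from 0.46 to 2.19 against siLSD1, and only the order of the groups is read from them. The rise over siControl was not called without siControl replicate 1 or siMyT1 replicate 2 or 3 (adjusted p from 0.0521 to 0.0667), and the other Bgn probe sets, which were dimmer, were not called. Lum, which encodes lumican, averaged 0.128 to 0.149 units in the 3 groups.

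Among elastic fibre genes, Eln fell in both knockdowns and Fbln1 rose in siLSD1. Eln, which encodes elastin, measured 1.18, 1.23 and 1.24 units in siMyT1 and 1.43, 1.04 and 1.30 units in siLSD1, against 2.11, 2.01 and 1.71 units in siControl. All knockdown arrays were below all control arrays, and the knockdowns overlapped with each other. Eln fell by 0.60 in siMyT1 (SE 0.14, adjusted p = 0.0233) and by 0.56 in siLSD1 (SE 0.14, adjusted p = 0.0254). Each call was lost without siControl replicate 1 or 2, without siMyT1 replicate 2 or 3 in siMyT1 (adjusted p from 0.0603 to 0.107) and without siLSD1 replicate 2 or 3 in siLSD1 (adjusted p from 0.0712 to 0.121).

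Fbln1 encodes fibulin-1, a glycoprotein of basement membranes and elastic fibres. It measured 42.6, 45.8 and 46.4 units in siMyT1 and 59.2, 49.8 and 54.3 units in siLSD1, against 43.7, 42.7 and 39.3 units in siControl. The siLSD1 arrays were above all the others, and siMyT1 overlapped with siControl. The rise in siLSD1 was 0.37 (SE 0.07, adjusted p = 0.00596), and a second bright probe set gave 0.26 (adjusted p = 0.0264 over all probe sets). In siMyT1 the difference was 0.10 (adjusted p = 0.514), and siMyT1 was below siLSD1 by -0.27 (adjusted p = 0.0202), a call lost without siMyT1 replicate 1 or 2 or siLSD1 replicate 1 or 3 (adjusted p from 0.0531 to 0.0738). Fbln2, the gene of the related fibulin-2, measured 19.3, 19.6 and 23.3 units in siMyT1 and 25.9, 22 and 24.4 units in siLSD1, against 24.6, 23.6 and 21.0 units in siControl. These groups overlapped and no difference of Fbln2 from siControl was called (-0.16 in siMyT1 and 0.06 in siLSD1). Between the knockdowns Fbln2 differed by -0.22 (adjusted p = 0.109), which became a call with quantile normalization, median centring or the filter on dim genes and without siMyT1 replicate 3. Fbn2, the fibrillin-2 gene, averaged at most 0.0845 units.

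None of 4 collagen-modifying genes was called by limma in any comparison, with 0 at an unadjusted p under 0.05 in siMyT1 and 1, Serpinh1, in siLSD1. Serpinh1 was called in siLSD1 with array weights, and Plod2 between the knockdowns with quantile normalization, the filter on dim genes and array weights, and without siLSD1 replicate 2. Plod2, a lysyl hydroxylase that prepares collagen for cross-linking, averaged 16.7 ± 1.5 units in siMyT1 and 19.7 ± 1.8 units in siLSD1, against 18.2 ± 1.9 units in siControl, and the 95% intervals of its difference from siControl were -0.32 to 0.08 in siMyT1 and -0.08 to 0.31 in siLSD1. Serpinh1, the collagen chaperone HSP47, averaged 0.794 ± 0.038 units in siMyT1 and 0.600 ± 0.037 units in siLSD1, against 0.886 ± 0.15 units in siControl. The lysyl oxidase genes Lox and Loxl1 averaged at most 0.156 units in any group.

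Among proteases and inhibitors, the inhibitor genes Timp2 and Timp3 carried the calls. Timp2, an inhibitor that also takes part in activating MMP2, averaged 10.9 ± 0.92 units in siMyT1 and 10.7 ± 0.86 units in siLSD1, against 8.70 ± 0.44 units in siControl (log2 fold change 0.32, adjusted p = 0.0282, and 0.30, adjusted p = 0.0356). Both knockdowns lay above siControl on every array, but both calls were lost without siControl replicate 1 or 3, that in siMyT1 also without siMyT1 replicate 2 or 3 (adjusted p from 0.101 to 0.118) and that in siLSD1 without siLSD1 replicate 1 or 3 (adjusted p from 0.111 to 0.134). With all 6 Timp2 probe sets tested singly, 1 was called in siLSD1, at 0.69 (adjusted p = 0.000271 over all probe sets), and differed by 0.10 in siMyT1 (adjusted p = 0.591). In that fit the brightest Timp2 probe set had an adjusted p of 0.0482 in siMyT1 and 0.0527 in siLSD1.

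Timp3, the inhibitor that binds to the matrix itself, measured 0.486, 0.555 and 0.655 units in siMyT1 and 0.271, 0.315 and 0.218 units in siLSD1, against 0.332, 0.349 and 0.500 units in siControl. It was higher in siMyT1 than in siLSD1 by 0.71 (SE 0.19, adjusted p = 0.0174) with no overlap, a call lost without siMyT1 or siLSD1 replicate 3 (adjusted p = 0.0722 and 0.0781) whose size ran from 0.38 to 1.07 across settings, and neither difference from siControl was called. Timp3 averaged below the background guide of 0.633 units in every group, and its other probe sets, which were dimmer, were not called in any comparison. Adamts1, a protease of proteoglycans, and Timp1, a secreted metalloprotease inhibitor, were not called in any comparison. Adamts1 was called higher in siMyT1 than in siControl with pseudocount 100, with the mean of all probe sets and without the intensity trend, and both genes were called higher in siMyT1 than in siLSD1 under the same 3 settings, Timp1 also with array weights and without siMyT1 replicate 1. Adamts1 averaged 0.593 ± 0.082 units in siMyT1 and 0.338 ± 0.080 units in siLSD1, against 0.316 ± 0.067 units in siControl (0.63 in siMyT1, adjusted p = 0.0654). Timp1 averaged 0.689 ± 0.17 units in siMyT1 and 0.419 ± 0.020 units in siLSD1, against 0.471 ± 0.031 units in siControl. The metalloprotease genes Mmp2 and Mmp14 were dim, at no more than 0.318 units, and were not called.

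**Figure D3:**
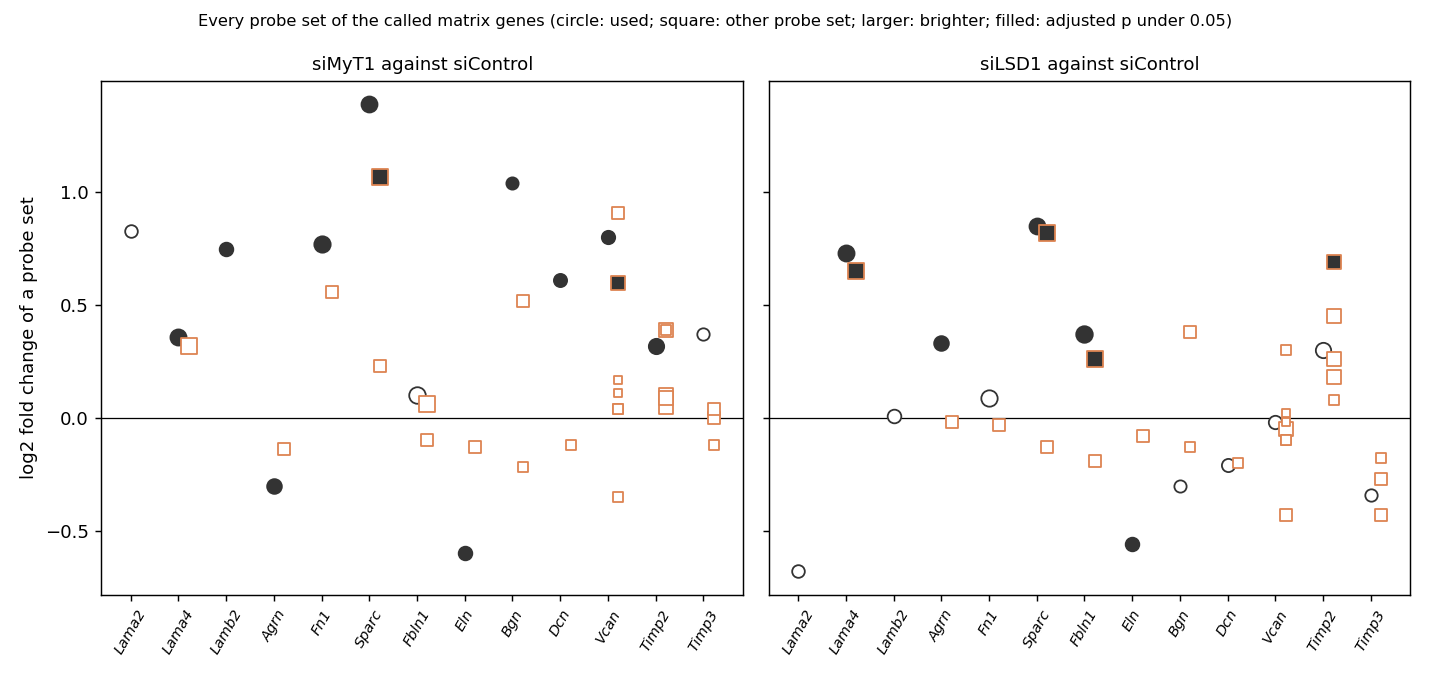
Log2 fold change of every probe set of the 13 called matrix genes, in siMyT1 against siControl (left) and siLSD1 against siControl (right), with p-values adjusted over all probe sets. Circles are the probe sets used, squares the others, larger symbols brighter probe sets, and filled symbols adjusted p under 0.05. Second probe sets were called in the same direction for Sparc and Vcan in siMyT1 and for Sparc, Lama4, Fbln1 and Timp2 in siLSD1, and 0 were called in the opposite direction.

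Averaging all probe sets of a gene, dim ones included, ended the calls of Lama4, Agrn, Eln, Bgn, Dcn, Vcan and Timp2 in siMyT1 (adjusted p from 0.0878 to 0.461), of Agrn, Fbln1 and Eln in siLSD1 (adjusted p from 0.238 to 0.639), and of Agrn, Fbln1, Bgn, Dcn, Vcan and Timp3 between the knockdowns (adjusted p from 0.06 to 0.464). In siMyT1 against siControl, median centring ended the calls of Lama4, Agrn and Timp2 (adjusted p = 0.092, 0.0588 and 0.0596).

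The direct comparison tests whether the knockdowns differ from each other. In siMyT1, 8 of 48 matrix genes (16.7%) were higher than in siLSD1, where 13.2% of all genes were, and 3 (6.25%) were lower, where 5.58% of all genes were, so the shares of members were close to those of all genes (11 members, or 22.9%, in either direction, and 18.8% of all genes). Arrays of siMyT1 lay wholly above those of siLSD1 for 11 members (22.9%, and 23.3% of all genes) and wholly below for 3 (6.25%, and 9.70% of all genes), 14 in all (29.2%, and 33.0% of all genes). Without siMyT1 replicate 3, 5 members were lower. The median difference of the members was 0.08, against 0.09 over all genes. Higher in siMyT1 were Lama2, Bgn, Vcan, Dcn, Lamb2, Timp3, Fn1 and Sparc, and lower were Agrn, Lama4 and Fbln1. Of the 8, Lama2, Bgn and Timp3 averaged below 0.633 units over the 9 arrays.

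**Figure D4:**
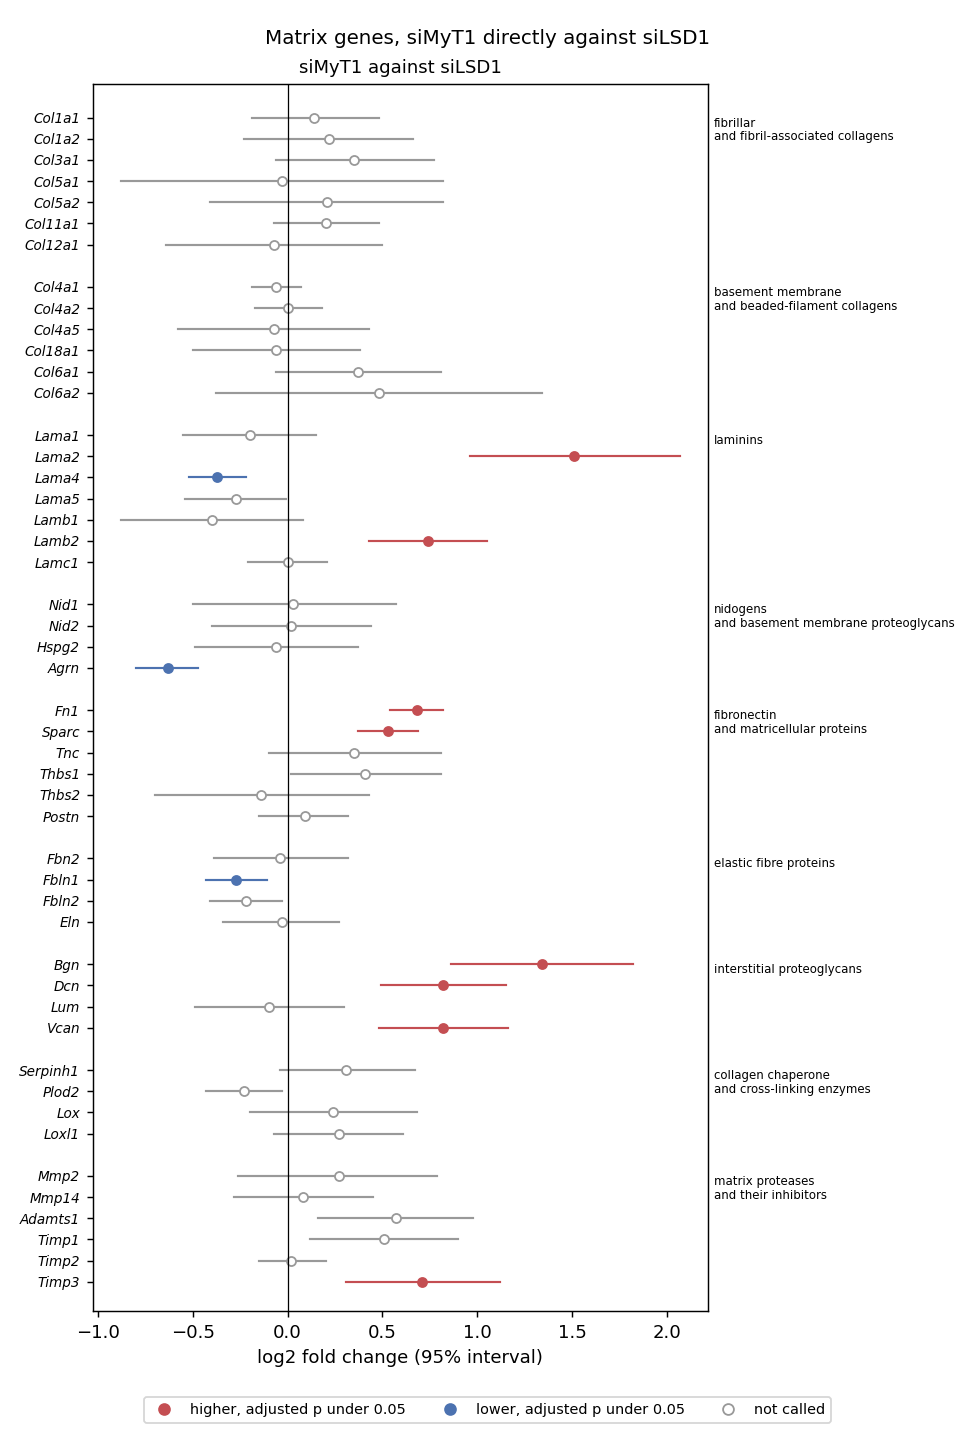
Log2 difference of each of the 48 measured matrix genes between siMyT1 and siLSD1, with 95% intervals of limma and genes grouped by role. Positive values mean higher in siMyT1. Sparc and Fn1 lie at 0.53 and 0.68 and Agrn at -0.63, while Col4a1 and Lamc1 lie close to 0.

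Set by their calls, 3 members rose in both knockdowns (Sparc, Lama4 and Timp2), 1 fell in both (Eln), 5 rose in siMyT1 without a call in siLSD1 (Fn1, Lamb2, Vcan, Dcn and Bgn), 1 rose in siLSD1 without a call in siMyT1 (Fbln1), and Agrn fell in siMyT1 and rose in siLSD1. Calls against siControl use the same siControl arrays in both knockdowns, which favours shared calls. The share of all genes in each pattern was not counted, so whether these counts are unusual was not tested. For each of the 5 genes that rose in siMyT1 alone and for Fbln1, the direct difference between the knockdowns was itself called. For Timp2 it was 0.02 (95% interval -0.15 to 0.20) and for Eln -0.03 (95% interval -0.34 to 0.27). The other 35 members were called in no comparison, and 9 of these (Col4a2, Adamts1, Timp1, Lama5, Lamb1, Fbln2, Plod2, Serpinh1 and Thbs1) were called under at least 1 alternative. Across 20 alternative settings, the calls of Sparc, Fn1 and Lamb2 in siMyT1, of Sparc and Lama4 in siLSD1, and of Sparc, Fn1, Lama4, Lamb2 and Lama2 between the knockdowns held in each one in which the gene was tested. Lamb2 and Lama2 have 1 probe set each, so the settings on probe set choice left their values unchanged. Where tested, Vcan in siMyT1 and Fbln1 in siLSD1 lost their call only with the mean of all probe sets. The same held for Agrn, Bgn, Dcn and Vcan between the knockdowns.

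A wider list of 145 other matrix genes, of which 138 were measured, gave 4 higher and 3 lower in siMyT1, and 14 higher and 3 lower in siLSD1, relative to siControl. These are 2.90% and 2.17% in siMyT1, where 5.12% and 2.29% of all genes were called, and 10.1% and 2.17% in siLSD1, where 3.97% and 4.93% were. Between the knockdowns, 9 of them (6.52%) were higher in siMyT1 and 16 (11.6%) lower, where 13.2% and 5.58% of all genes were. Its median log2 fold change was 0.05 in siMyT1 and -0.03 in siLSD1, the same as over all genes. In the wider list, 22 further collagen chains gave 0 calls by limma against siControl (0 and 3 had an unadjusted p under 0.05 in siMyT1 and siLSD1) and 1 between the knockdowns, Col4a6, a collagen IV chain (0.69 higher in siMyT1, adjusted p = 0.0349). Netrin-G1, encoded by Ntng1, was the call among 9 further laminin and netrin chains (-0.70 in siMyT1 against siLSD1, adjusted p = 0.0406). Col4a6 averaged 0.285 units in siMyT1 and 0.109 units in siLSD1, and Ntng1 0.199 and 0.432 units. All of these lie below the background guide of 0.633 units.

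Among 21 enzymes and transport factors of collagen production, 4 (19.0%) rose and 1 (4.76%) fell in siLSD1, and 1 (4.76%) rose in siMyT1. Over all genes, 3.97% rose and 4.93% fell in siLSD1, and 5.12% rose in siMyT1. Mia3, which encodes the collagen export receptor TANGO1, averaged 24.6 units in siMyT1 and 34.1 units in siLSD1, against 24.0 units in siControl (0.50 in siLSD1, adjusted p = 0.000234). Sec23a, a coat protein of the vesicles that carry collagen out of the endoplasmic reticulum, rose by 0.42 in siLSD1 (adjusted p = 0.00118), and Colgalt1, a collagen galactosyltransferase, by 0.45 (adjusted p = 0.00153). In siMyT1 these 3 genes differed from siControl by 0.03, -0.16 and -0.14, and each was lower in siMyT1 than in siLSD1 (-0.47, -0.58 and -0.59, adjusted p = 0.000229, 5.71e-05 and 0.000118). Among lysyl oxidases and transglutaminase, Tgm2, a protein cross-linking enzyme, rose by 0.74 in siMyT1 (adjusted p = 0.00776), and Loxl3 was 0.60 higher in siMyT1 than in siLSD1 (adjusted p = 0.0347).

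Of 26 further proteases and inhibitors, 2 (7.69%) rose in siMyT1, where 5.12% of all genes did. In siLSD1, 5 (19.2%) rose and 1 (3.85%) fell, where 3.97% and 4.93% of all genes did. Plat, which encodes tissue plasminogen activator, averaged 4.64 units in siMyT1 and 3.15 units in siLSD1, against 2.01 units in siControl (1.13, adjusted p = 1.98e-05, and 0.60, adjusted p = 0.00069). Plaur, the urokinase receptor gene, rose by 0.49 in siMyT1 (adjusted p = 0.00213) and 0.63 in siLSD1 (adjusted p = 0.000194). Ctsb, the lysosomal protease cathepsin B, rose by 0.60 in siLSD1 (adjusted p = 6.21e-05) and differed by 0.15 in siMyT1 (adjusted p = 0.196).

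Further proteoglycans gave 3 falls in siMyT1 (14.3%, and 2.29% of all genes) and 2 rises in siLSD1 (9.52%, and 3.97% of all genes) among 21 genes. The cell surface proteoglycan genes Sdc3 and Gpc1 fell in siMyT1 by 0.42 (adjusted p = 0.0136) and 0.40 (adjusted p = 0.00815). Ncan, which encodes neurocan of brain matrix, rose by 0.68 in siLSD1 (adjusted p = 0.00343) and differed by -0.21 in siMyT1 (adjusted p = 0.399). Among 25 further matricellular and elastic fibre genes, 3 rose in siLSD1 and 0 were called in siMyT1 by limma, where 6 had an unadjusted p under 0.05. Over all genes, 3.97% rose and 4.93% fell in siLSD1, and 5.12% rose and 2.29% fell in siMyT1. Between the knockdowns, 3 of the 25 were higher in siMyT1 and 3 were lower, where 13.2% and 5.58% of all genes were. Ltbp4, a carrier of latent TGF-beta, rose by 0.29 in siLSD1 (adjusted p = 0.0381), as did the elastic fibre gene Emilin1 by 0.35 (adjusted p = 0.0348). Ltbp4 and Emilin1 were also lower in siMyT1 than in siLSD1 (-0.51 and -0.47, adjusted p = 0.000658 and 0.00397). Ccn1, a matricellular gene, was 0.91 higher in siMyT1 than in siLSD1 (adjusted p = 0.00447). It averaged 0.355 units in siLSD1, below the background guide of 0.633 units. Among 11 matrix receptor genes outside the integrins, Ddr1, a collagen-binding receptor kinase, fell by 0.38 in siLSD1 (adjusted p = 0.00738), and Sgce, a sarcoglycan gene, was 0.31 higher in siMyT1 than in siLSD1 (adjusted p = 0.0264).

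Cell type markers were read beside these results. Of 12 measured neuroblastoma and sympathetic neuron markers, 5 fell in siMyT1, and 4 rose and 1 fell in siLSD1, relative to siControl. These are 41.7% lower in siMyT1, where 2.29% of all genes were, and 33.3% higher and 8.33% lower in siLSD1, where 3.97% and 4.93% were. In siMyT1 set directly against siLSD1, limma called 8 of the 12 (66.7%) lower and 0 higher, where 5.58% and 13.2% of all genes were, with 9 at an unadjusted p under 0.05 in either direction and a median of -0.49. Their summed intensity was 191 to 204 units in siMyT1 and 258 to 289 units in siLSD1, against 245 to 259 units in siControl. The 5 that fell in siMyT1 were Chgb (-0.71), Chrna3 (-0.52), Hand2 (-0.46), Chga (-0.43) and Phox2a (-0.33). In siLSD1, Mycn (0.89), Th (0.58), Tubb3 (0.42) and Phox2a (0.39) rose and Hand2 (-0.38) fell. Dbh, the dopamine beta-hydroxylase gene, averaged 0.805 units in siMyT1 and 0.958 units in siLSD1, against 1.22 units in siControl, and was called in no comparison. The 10 fibroblast and mural cell markers gave 0 calls by limma in any comparison (0 had an unadjusted p under 0.05 in siMyT1 and 1 in siLSD1, against siControl), with summed intensities of 4.27 to 5.56 units in siMyT1 and 3.67 to 3.83 units in siLSD1, against 3.70 to 5.05 units in siControl. Pdgfrb, a receptor gene of mural cells and fibroblasts, made up most of these sums, at 2.93 units in siMyT1 and 2.40 units in siLSD1, against 2.69 units in siControl, while the other 9, Pdgfra and Twist1 among them, averaged at most 0.521 units in any group. The 6 endothelial markers summed to 1.67 to 2.67 units in siMyT1 and 1.19 to 1.57 units in siLSD1, against 0.933 to 1.80 units in siControl, and Tek, an angiopoietin receptor gene, rose in siMyT1 (1.03, adjusted p = 0.0101) and was higher there than in siLSD1 (0.67, adjusted p = 0.0396). Pecam1 averaged 0.578 units in siMyT1 and 0.380 units in siLSD1, against 0.287 units in siControl (0.77 in siMyT1, adjusted p = 0.107), and Kdr 0.514 units in siMyT1 and 0.341 units in siLSD1, against 0.367 units in siControl. Tek averaged 0.868 units in siMyT1, 0.461 units in siLSD1 and 0.313 units in siControl, with siLSD1 and siControl below the background guide of 0.633 units. The remaining endothelial markers Cdh5, Tie1 and Emcn averaged at most 0.165 units. Summed intensities of 4 Schwann cell markers were 2.63 to 2.88 units in siMyT1 and 1.64 to 2.28 units in siLSD1, against 1.82 to 2.93 units in siControl. Among the 4, only the neuregulin receptor gene Erbb3 was called, higher in siMyT1 (1.65 units) than in siLSD1 (1.06 units), by 0.55 (adjusted p = 0.0473). Sox10, S100b and Gfap differed there by 0.61, -0.13 and 0.14 without a call. In the same comparison 8 matrix genes, Lama2, Bgn, Dcn and Vcan among them, and 13.2% of all genes were higher in siMyT1. Summed intensities of 6 macrophage and leukocyte markers were 1.49 to 1.94 units in siMyT1 and 1.28 to 1.76 units in siLSD1, against 1.62 to 2.27 units in siControl, and Cd3e, a T cell gene, fell in siLSD1 (-0.82, adjusted p = 0.0446). Cd3e averaged 0.2 units in siLSD1 and 0.521 units in siControl, both below the background guide of 0.633 units. The part of any change in cell makeup in the matrix results was not tested, and in bulk RNA fewer cells of a type and less RNA per cell cannot be told apart.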

How the data were processed

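Total RNA was hybridised with a single biotin label, per the labels. Values as deposited are linear intensities for 45101 probe sets on 9 arrays, and how the authors summarised and scaled them is not given in the sources used here. Probe sets were named from the platform annotation. Of these, 34945 listed 1 symbol and 932 several, and those with several were not used. Entrez identifiers of 34741 matched RefSeq (GRCm38.p6) and changed 0 symbols. The brightest probe set over all arrays stood for each of 18193 genes.

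Intensities were multiplied by 1 constant, 163.6, that sets the mean of the arrays' 2% trimmed means to 500. They were analysed as log2(value + 32), which is 0.196 deposited units, with no further scaling between arrays. Group means over all 9 arrays were fitted with limma 3.58.1 in R 4.3.3 with an intensity trend (6 residual and 6.84 prior degrees of freedom). Tests were two-sided, with Benjamini-Hochberg adjustment over all genes at 0.05. For a single gene, an exact permutation test of 3 arrays against 3 cannot go below p = 0.1. The procedure was tested on simulated arrays.

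The members and lists were chosen with earlier results of these data known. By rule, values on every array are given for members called with a log2 fold change of at least 0.58 in size and for the 5 brightest members, and up to 3 called genes with the smallest adjusted p are named per wider list. Col4a1 and Col4a2 were added after their values were seen. Alternatives covered scaling, pseudocount, filtering, probe set choice, variance models, the replicate number as a block, and leaving out each array.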

Additional observations from a re-analysis of the deposited data

How the results depend on the processing

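No call of a matrix gene changed direction under any of the 20 alternatives (11 settings and 9 fits with 1 array left out), and the calls that held wherever the gene was tested numbered 3 of 10 for siMyT1 and 2 of 6 for siLSD1, each against siControl, and 5 of 11 between the knockdowns. Among the calls that held were those of Lamb2 and Lama2, whose values the probe set settings could not change, with 1 probe set each. In siMyT1 against siControl, the 8 higher members became 5 with the filter on dim genes, which leaves out Bgn, Dcn and Vcan, and 4 with the mean of all probe sets, and the 2 lower members became 1 with median centring, with only the compared groups, without the intensity trend and with the replicate block, and 0 with the mean of all probe sets. In siLSD1 against siControl, the 5 higher members became 3 and the 1 lower member 0 with the mean of all probe sets, and 3 were lower with array weights. Between the knockdowns, the 8 higher members became 3 with the filter, which leaves out 5 of them, and the 3 lower members became 6 with quantile normalization, 5 with median centring or the filter, and 1 with the mean of all probe sets. Calls over all genes moved to 2480 with quantile normalization, 862 with the mean of all probe sets and 765 without the intensity trend in siMyT1 against siControl (1348 as reported), and to 2809, 1079 and, with array weights, 2966 in siLSD1 against siControl (1619 as reported). The members' median in siLSD1 against siControl (0.03 as reported) was 0.12 with median centring. With the filter it was 0.20, but over the 15 of 48 members that the filter kept, so it describes a different set of genes. Where no construction of the setting shows it, the cause was not tested. Median centring moved the median of all genes between the knockdowns by -0.13, and split the calls there into 1248 higher and 1695 lower, against 2408 higher and 1015 lower as reported. It gave 662 and 501 in siMyT1 against siControl (931 and 417 as reported) and 1103 and 564 in siLSD1 against siControl (722 and 897 as reported), and quantile normalization gave 1264 and 1216, 1415 and 1394, and 2268 and 2047 in the same 3 comparisons with siMyT1 against siControl first, siLSD1 against siControl next and the knockdowns last.

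With 1 array left out, higher members numbered 5 to 9 in siMyT1 against siControl, 3 to 5 in siLSD1 against siControl and 7 to 10 between the knockdowns, and lower members 0 to 2, 0 to 1 and 2 to 5. Calls over all genes ran from 650 to 1450, 965 to 1723 and 2331 to 3705, and the members' median from 0.06 to 0.24, -0.03 to 0.07 and 0.02 to 0.18. Counts of higher members in siMyT1 fell to 5 without siControl replicate 1, siMyT1 replicate 2 or siMyT1 replicate 3, and in siLSD1 to 3 without siControl replicate 1 or siLSD1 replicate 1 or 3. Arrays share only a replicate number: deviations from group means correlated at -0.03 to 0.04 between arrays of the same number and -0.03 to 0.05 between others, and 0 of 9 arrays were closest to their own number in both other groups. With the replicate block, 7 members were higher and 1 lower in siMyT1 against siControl, 4 and 1 in siLSD1 against siControl, and 8 and 3 between the knockdowns, with 935, 1259 and 2927 calls over all genes. Signal over background limits the 30 dim members, where 1 call against siControl (Bgn) and 3 between the knockdowns were made.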
